A study of Mus musculus with 4 samples.

Results

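Heat shock chaperones are described here across 4 sorted cell populations of the mouse small intestine. The genes are Hspa1a, Hspa1b, Dnajb1, Hsph1, Hsp90aa1, Hspb1, Hspa8, Hspe1, Hspd1 and Bag3, and each was read from the array features whose platform annotation gives its symbol and no other, and of several such features the brightest on average was used. By that rule 9 of the 10 genes were measured, among 30705 genes in all, and Hspa1b was not, because its array feature is shared with Hspa1a. Values are the authors' deposited log2 values.

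Total RNA was hybridised to 4 Clariom D whole-transcript arrays, 1 per population. All populations came from mice that carry the Lgr5GFP-CreERT2 allele, in which GFP and a tamoxifen-inducible Cre are expressed from the promoter of Lgr5, the R-spondin receptor gene of crypt base stem cells, and the labels give an age of 8 weeks. The populations were GFP-positive stem cells with the LncGata6 mut genotype, in which a long noncoding RNA encoded next to Gata6 is mutated, GFP-positive stem cells of Ehf-/- mice, which lack an epithelial ETS transcription factor, GFP-positive wild-type stem cells, and GFP-negative wild-type non-stem cells. The number of animals behind each array and any tamoxifen treatment are not given in the sources used here, and the collection protocol of all 4 samples names sorting of ILCreg, an innate lymphoid cell. With 1 array per population no difference has an estimate of its error and no test was possible.

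Heat shock proteins keep other proteins folded. When unfolded protein accumulates, the transcription factor HSF1 is released from chaperones, forms trimers and binds heat shock elements, which are inverted repeats of the unit nGAAn in the promoters of inducible chaperone genes. Inducible HSP70, encoded by the neighbouring genes Hspa1a and Hspa1b, and constitutive HSP70, encoded by Hspa8, bind and release unfolded chains, helped by J-domain proteins such as Dnajb1, by the nucleotide exchange factor Hsph1 and by Bag3. Hsp90aa1 encodes the inducible cytosolic HSP90, Hspb1 a small heat shock protein that holds unfolded chains, and Hspd1 and Hspe1 the barrel and the lid of the mitochondrial chaperonin. Many of these genes, like immediate early genes, are also known to respond to tissue dissociation and cell sorting.

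Promoter sequences are shown because they carry the element through which HSF1 acts on these genes, and because 2 pairs of the genes share promoter sequence. RefSeq promoter windows of the GRCm38.p6 assembly were found for 8 of the 10 genes; Hsp90aa1 and Hspa8 had none in the table. In the 250 bases before each start, adjacent inverted units were searched as GAANNTTC or TTCNNGAA. Each of these patterns is its own reverse complement, so both strands were read together, and neighbouring matches can overlap by 3 bases. Capitals mark the matched units in the sequences below, each read 5′ to 3′ on the strand of its gene.
Hspa1a (minus strand, chr17:34972157-34972306, the 150 bases before the start): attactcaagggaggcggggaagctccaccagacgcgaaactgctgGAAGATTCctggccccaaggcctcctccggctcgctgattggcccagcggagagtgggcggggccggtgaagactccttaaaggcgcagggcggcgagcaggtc
Hspa1b (minus strand, chr17:34959239-34959388, the 150 bases before the start): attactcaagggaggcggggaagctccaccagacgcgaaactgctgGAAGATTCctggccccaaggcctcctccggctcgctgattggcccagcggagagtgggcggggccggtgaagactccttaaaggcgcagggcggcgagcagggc
Hspe1 (plus strand, chr1:55088038-55088097, bases 110 to 51 before the start): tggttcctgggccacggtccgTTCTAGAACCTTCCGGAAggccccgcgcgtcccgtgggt
Hsph1 (minus strand, chr5:149636337-149636436, the 100 bases before the start): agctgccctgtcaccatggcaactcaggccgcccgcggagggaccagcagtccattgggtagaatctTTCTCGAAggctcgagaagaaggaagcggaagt

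An adjacent pair of units was found for 6 of the 8 genes with a window, Hspa1a, Hspa1b, Hsph1, Hspb1, Hspd1 and Hspe1, and was not found in the windows of Dnajb1 and Bag3. Such a pair was found for 14.5% of the 27025 genes of the table and in 12.8% of its 32851 windows. A run of 3 alternating units was found for Hspe1 and Hspd1, against 0.514% of all genes and 0.466% of all windows. The counts are of genes and not of separate sequences. Hspa1a and Hspa1b are nearly identical upstream, and Hspe1 and Hspd1 share the same run of units. These matches describe letters in a window, and no binding was measured.

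Hspa1a and Hspa1b are nearly indistinguishable upstream. Of the 250 bases before their starts 247 were identical (98.8%), and the differences were C207T, T204C and T2G, each written as the Hspa1a base, the number of bases before the start and the Hspa1b base. The pair of units lay 104 to 97 bases before the start in both genes. Hspe1 and Hspd1 lie on opposite strands, and Hspd1 has 2 annotated starts. The start 216 bases from that of Hspe1 faces away from it, so that the same run of units lies 89 to 72 bases before the Hspe1 start and 144 to 127 bases before this Hspd1 start. The other Hspd1 start is 95 bases from that of Hspe1, its transcript runs back over the Hspe1 start, and its window held no match. For Hsph1 the pair lay 33 to 26 bases before the first of 2 annotated starts. Hspb1 had separate pairs at 117 to 110 and 97 to 90 bases.

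**Figure D1:**
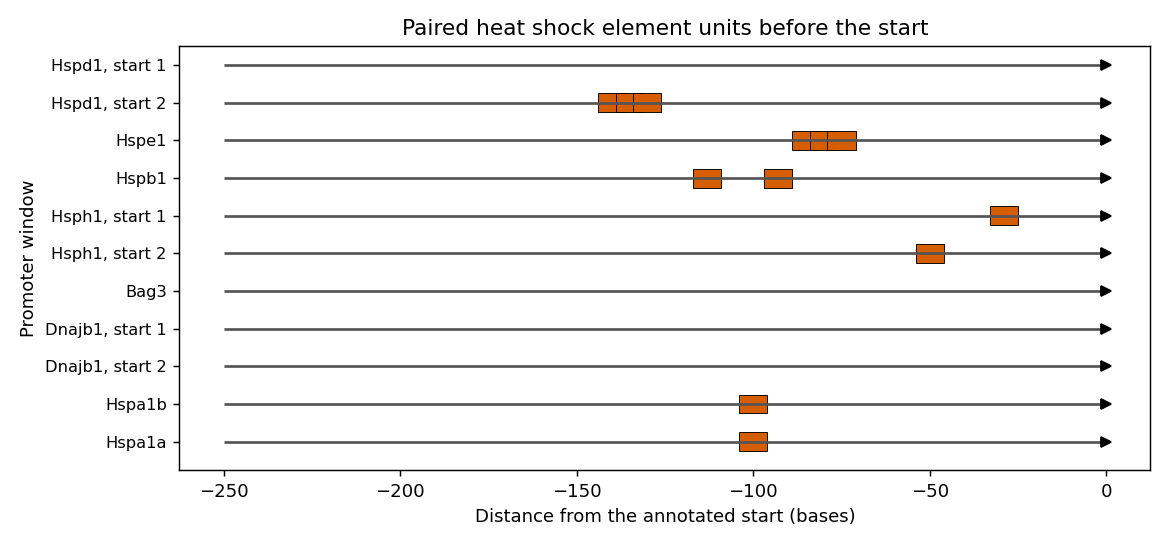
Position of paired heat shock element units in the 250 bases before each annotated start (arrowheads at 0; x axis, distance in bases) for the 8 heat shock chaperone genes with a RefSeq promoter window, with genes of several starts drawn once per start. Boxes are matched units: single boxes at the same distance in Hspa1a and Hspa1b, long joined runs in Hspe1 and in the Hspd1 start 216 bases from it, and none in Dnajb1, Bag3 and the other start of Hspd1.

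The arrays differed in which cells they held, as far as marker genes show. A feature was counted as above background when it exceeded 95% of the 5222 negative control features on the same array. This limit was 5.31 on the LncGata6 mutant, 5.19 on the Ehf knockout, 5.62 on the wild-type stem and 5.16 on the non-stem array. Of all genes, 20.1%, 17.5%, 16.5% and 26.5% reached it in this order. LncGata6, annotated as Gata6os, read 4.37, 4.04, 4.92 and 3.14 in this order, under each limit, so it gives no check of its label. Lgr5 read 3.03, 2.79, 9.41 and 3.03 on those arrays, so that the gene that defines the sort was above background in wild-type stem cells and under the limit in both mutants. Ehf read 5.09, 3.03, 6.99 and 3.75, under the limit on the Ehf knockout array but also on the LncGata6 mutant and non-stem arrays, and Gata6 read 7.62, 3.17, 7.21 and 5.08. Of 14 general epithelial genes, 13 passed the limit in LncGata6 mutant, 0 in Ehf knockout, 14 in wild-type stem and 12 in non-stem cells. All 10 neutrophil, all 10 macrophage and all 6 measured B and plasma cell genes passed it on the Ehf knockout array (medians 9.53, 7.53 and 7.74). On the LncGata6 mutant array all 10 T cell and all 10 enterocyte genes did (medians 8.69 and 10.69). On the non-stem array all 9 measured hepatocyte and all 8 kidney tubule genes did (medians 10.92 and 9.55). Also past the limit there were 6 of 7 stromal, 5 of 7 endothelial and 6 of 10 T cell genes. So were 6 of 10 macrophage, 5 of 10 neutrophil and 4 of 6 B and plasma cell genes. The wild-type stem array carried Paneth and goblet signal, with all 7 measured Paneth and all 7 goblet genes past the limit (medians 10.53 and 9.80). All goblet genes and 6 of 7 Paneth genes (median 8.70) also passed on the LncGata6 mutant array. On the non-stem array all enterocyte and 5 of 7 goblet genes passed, and on the wild-type stem array 7 of 10 enterocyte genes. Of 10 crypt base stem genes, Lgr5 among them, 6 passed the limit in wild-type stem and 2 in non-stem cells. In LncGata6 mutant cells 3 of these genes passed and in Ehf knockout cells 1, Lgr5 not included. Some crypt base stem signal was therefore present in each population. The population names used below are those of the labels, which Lgr5 bears out for wild-type stem cells and for neither mutant. In such bulk samples fewer cells of a type and less RNA per cell cannot be told apart, and the part of these differences in cell content in the chaperone values was not tested.

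**Figure D2:**
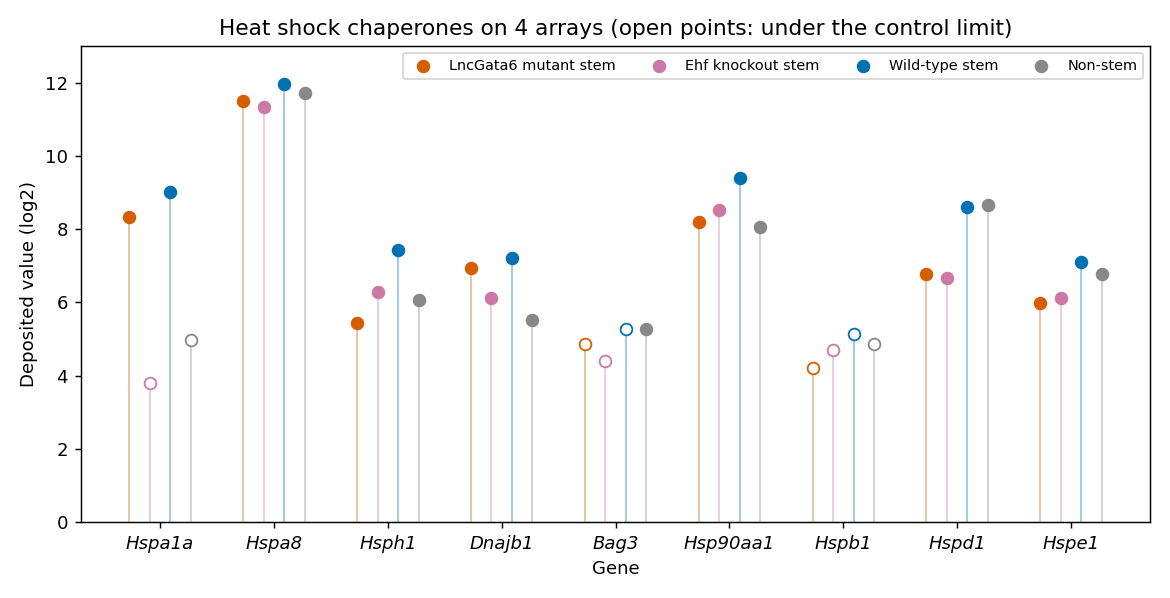
Deposited log2 values of the 9 measured heat shock chaperones on the LncGata6 mutant stem, Ehf knockout stem, wild-type stem and non-stem arrays, 1 point per array. Filled points passed the array's negative control limit and open points did not; the wild-type stem value of Hspa1a, 9.02, stands beside 3.79 on the Ehf knockout array, while the 4 values of Hspa8 lie between 11.32 and 11.97.

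Among the HSP70 proteins, Hspa1a, the stress-inducible form, read 8.34 in LncGata6 mutant, 3.79 in Ehf knockout, 9.02 in wild-type stem and 4.98 in non-stem cells. This feature was above background in LncGata6 mutant and wild-type stem cells and under the limit in the others, although the feature shared with Hspa1b, described later, passed the limit in non-stem cells too. Hspa8, the constitutive form, read 11.51, 11.32, 11.97 and 11.70 on the same arrays. Its 4 values spanned less than the 2-fold limit used for calls, with the wild-type stem array highest.

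Among the helpers of HSP70, Dnajb1, the J-domain protein that loads clients onto it, read 6.93 on the LncGata6 mutant, 6.11 on the Ehf knockout, 7.20 on the wild-type stem and 5.53 on the non-stem array, all above background. Hsph1, an HSP110 protein that exchanges the nucleotide of HSP70, read 5.45, 6.29, 7.43 and 6.06. The LncGata6 mutant array held the lowest Hsph1 value, close to its limit of 5.31, and the wild-type stem array the highest. Bag3, a nucleotide exchange factor that directs clients to autophagy, read 4.88, 4.39, 5.28 and 5.28 and passed the limit on the non-stem array only.

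Hsp90aa1, the inducible HSP90, read 8.19 on the LncGata6 mutant, 8.52 on the Ehf knockout, 9.39 on the wild-type stem and 8.05 on the non-stem array. Wild-type stem cells stood above the others, which lay within 0.47 of each other. Hspb1, the small heat shock protein, read 4.22, 4.69, 5.13 and 4.86 and was under the limit on all 4 arrays, so no fold is given for it.

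Of the mitochondrial chaperonin genes, Hspd1 read 6.78 on the LncGata6 mutant and 6.66 on the Ehf knockout array, against 8.60 in wild-type stem and 8.65 in non-stem cells. Hspe1, its partner gene, read 5.99 and 6.13 on the mutant arrays, against 7.10 on the wild-type stem and 6.78 on the non-stem array. For both genes the wild-type arrays lay above the mutant arrays, by a smaller distance for Hspe1; Hspa8, Hspb1 and Bag3 were ordered in that way too. No spread is available to say which neighbours in these orders differ.

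The first comparison sets the wild-type stem array against the non-stem array. The non-stem array carried hepatocyte and kidney tubule signal, beside stromal, endothelial and blood cell signal, so it does not stand for intestinal non-stem cells alone. The part of that signal was not tested. A gene was called when the log2 values differed by at least 1, which is 2-fold, and the brighter value reached the 75th percentile of its array; folds are brighter over dimmer, and the control limit replaces a dimmer value under it, giving a fold of "at least". On the wild-type stem array 4 of the 9 chaperones were called higher than on the non-stem array, where 3.83% of all genes were called higher, and 0 of 9 were called lower, where 7.07% of all genes were. Hspa1a differed by 4.04 (at least 14.5-fold higher), Dnajb1 by 1.67 (3.19-fold), Hsph1 by 1.38 (2.59-fold) and Hsp90aa1 by 1.34 (2.54-fold). For Hspa1a the shared feature, above the limit on both arrays, gave a smaller difference, 3.23. The called genes are the inducible HSP70, its J-domain protein, its exchange factor and the inducible HSP90. Hspe1 (0.32), Hspa8 (0.27), Hspb1 (0.27), Bag3 (0.00) and Hspd1 (-0.05) were not called. The median difference of the 9 genes was 0.32, against -0.11 for all genes. Of the chaperones 7 passed the control limit on each array, against 16.5% (wild-type stem) and 26.5% (non-stem) of all genes. Genes dim on both arrays cannot be called, so shares over all genes, here and below, are lower than among bright genes. With the control limit as brightness limit, 924 genes were called higher and 2237 lower. These stand among 8637 genes above that limit on at least 1 of the 2 arrays.

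In LncGata6 mutant stem cells 4 of 9 chaperones were called lower than in wild-type stem cells, where 3.02% of all genes were called lower, and 0 of 9 were called higher, where 2.81% of all genes were. Marker genes differed too: all 10 T cell and all 10 enterocyte genes were called higher. All 7 measured Paneth and 6 of 10 crypt base stem genes were called lower. The part of cell content in the chaperone differences was not tested. Hsph1 differed by -1.98 (3.96-fold lower), Hspd1 by -1.82 (3.52-fold), Hsp90aa1 by -1.20 (2.30-fold) and Hspe1 by -1.11 (2.16-fold). These genes include both subunits of the mitochondrial chaperonin, whereas Hspa1a (-0.68, a ratio of 1.60-fold) and Dnajb1 (-0.28, 1.21-fold) were not called. Hspb1 (-0.91), Hspa8 (-0.46) and Bag3 (-0.40) were not called either. The median was -0.91 over the 9 genes, which is the value of Hspb1, a gene under the limit on both arrays, and -0.06 over all genes. With the control limit as brightness limit, 790 genes were called higher and 777 lower, among 6666 above that limit on at least 1 array. The calls of Hsp90aa1 and Hspe1 depended on the scaling: Hsp90aa1 differed by -0.98 after quantile normalization and -0.91 after cyclic loess, and Hspe1 by -0.93 after cyclic loess.

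On the array labelled Ehf knockout stem cells 4 of 9 chaperones were called lower than in wild-type stem cells, where 5.29% of all genes were called lower. Called higher were 0 of 9, where 2.59% of all genes were. That array passed the control limit for 0 of 14 general epithelial genes and for all 10 neutrophil genes, and the part of cell content in these differences was not tested. Hspa1a differed by -5.22 (at least 14.2-fold lower), Hspd1 by -1.94 (3.83-fold), Hsph1 by -1.14 (2.21-fold) and Dnajb1 by -1.09 (2.13-fold). Hspe1 (-0.98), Bag3 (-0.89), Hsp90aa1 (-0.87), Hspa8 (-0.65) and Hspb1 (-0.43) were not called. The median was -0.98 over the 9 genes and -0.20 over all genes. With the control limit as brightness limit, 664 genes were called higher and 1151 lower, among 6380 above that limit on at least 1 array. The calls of Dnajb1 and Hsph1 were lost under each of 3 other scalings, with differences of -0.91 and -0.96 once arrays were centred on their medians, -0.72 and -0.77 with quantile normalization and -0.74 and -0.79 with cyclic loess. All 3 comparisons so far rest on 1 shared array, that of wild-type stem cells, so their values are given side by side and no agreement between them is counted.

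**Figure D3:**
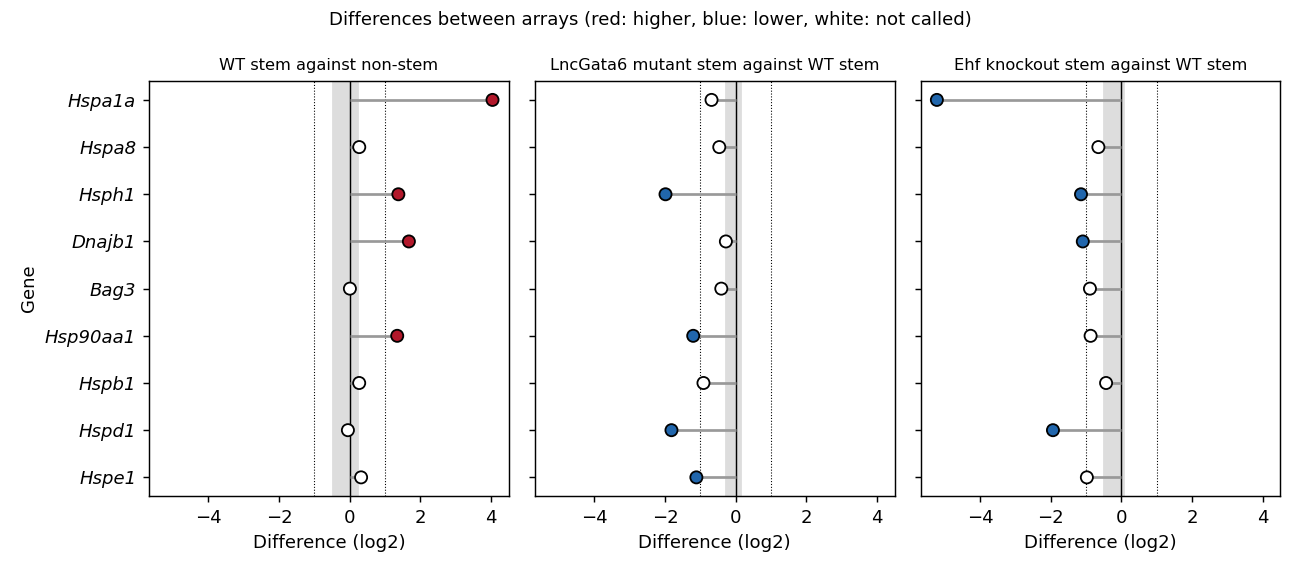
Differences in log2 value for the 9 measured heat shock chaperones in 3 comparisons: wild-type stem minus non-stem, LncGata6 mutant stem minus wild-type stem, and Ehf knockout stem minus wild-type stem. Red points were called higher, blue points lower and white points not called; dotted lines mark a difference of 1 each way and the grey band holds the middle of all genes (25th to 75th percentile), and Hspa1a lies far outside the band at 4.04 and -5.22 in the first and last panels.

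Set against the non-stem array, LncGata6 mutant stem cells had 2 of 9 chaperones higher, where 3.66% of all genes were called higher, and 1 of 9 lower, where 6.87% were. Hspa1a was at least 9.06-fold higher (difference 3.36, and 2.87 in the feature shared with Hspa1b), Dnajb1 2.64-fold higher (1.40) and Hspd1 3.65-fold lower (-1.87). In Ehf knockout stem cells 0 of 9 were higher than on the non-stem array, where 3.01% of all genes were, and 1 of 9 was lower, where 9.83% were. That gene was Hspd1, which was 3.98-fold lower (-1.99), while the feature of Hspa1a alone was under the limit on both arrays and the one shared with Hspa1b differed by -1.28. Of the 9 other mitochondrial chaperones and proteases, 6 in LncGata6 mutant and 8 in Ehf knockout stem cells were also lower than on the non-stem array, which is the array with hepatocyte and kidney tubule signal; the part of that signal was not tested. Dnajb1 differed by 0.58 in this comparison and was called higher, at 1.24, after quantile normalization.

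Between the mutants, 1 of 9 chaperones was higher in LncGata6 mutant than in Ehf knockout stem cells, where 6.16% of all genes were called higher, and 0 of 9 were lower, where 3.47% were. Hspa1a was at least 8.86-fold higher (difference 4.54). Hspd1 differed by 0.12 and Hspe1 by -0.13, so each chaperonin gene stood at a similar level in both mutants. Hsph1 differed by -0.84, and was called lower under the other scalings, at -1.02 after median centring, -1.20 after quantile normalization and -1.04 after cyclic loess.

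Features left out by the rule give a further reading of 3 genes. The feature annotated with both Hspa1a and Hspa1b read 8.41 on the LncGata6 mutant, 4.25 on the Ehf knockout, 8.76 on the wild-type stem and 5.53 on the non-stem array, in the same order as Hspa1a alone, and passed the limit of 5.16 on the non-stem array. These near-identical genes may share probes, so their signals cannot be told apart with certainty. The 4 features annotated with Hspa8 alone carry identifiers that name chromosomes 1, 1, 6 and 14, although RefSeq places Hspa8 on chromosome 9; over all named features the identifier matched the RefSeq chromosome for 99.7% of 31061. Whether they read Hspa8 itself or copies of it was not tested. The feature whose identifier names chromosome 9, shared with snoRNAs of the gene, read 9.22, 8.85, 9.53 and 9.21. Its highest value was also on the wild-type stem array. The features that Hsp90aa1 shares with Gm5844 and Gm12346 read 9.83 and 10.21 in wild-type stem cells and 8.37 and 8.67 in non-stem cells. In LncGata6 mutant against wild-type stem cells they differed by -1.59 and -1.49, beside -1.20 for the feature used. In Ehf knockout against wild-type stem cells they differed by -0.80 and -0.96, beside -0.87.

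**Figure D4:**
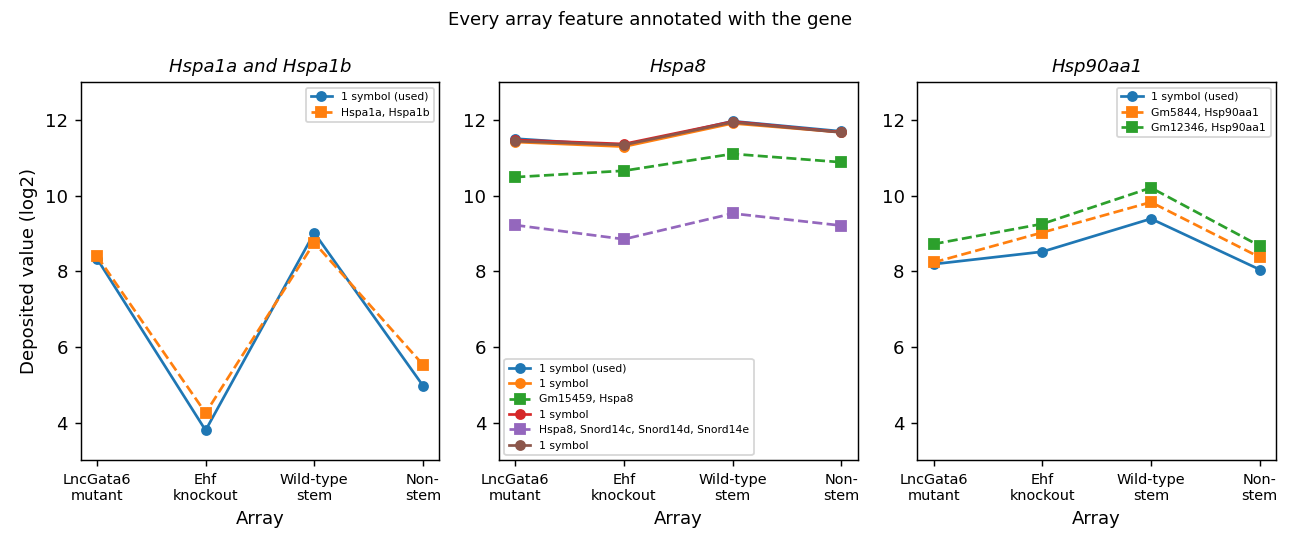
Deposited log2 values of every feature annotated with Hspa1a or Hspa1b, with Hspa8, and with Hsp90aa1 on the 4 arrays. Solid lines are features with 1 symbol, dashed lines features with several, and lines only join values of a feature; the shared Hspa1a and Hspa1b feature runs near Hspa1a, at 8.76 on the wild-type stem and 4.25 on the Ehf knockout array.

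The wider chaperone network was read from further gene lists. The regulator Hsf1 was not measured by a feature with 1 symbol, and Hsf2 and Hsf4, related heat shock factors, were under the limit on all 4 arrays. In wild-type stem cells, against non-stem cells, other HSP70 genes had 0 of 7 called in either direction (median 0.30), and other J-domain genes had 1 of 12 higher, Dnajc2 (at least 1.73-fold), a ribosome-associated protein (median 0.08). The cytosolic chaperonin TRiC had 0 of 7 called (median 0.24). Of 7 other small heat shock proteins 0 were higher and 2 lower, the lens and muscle chaperone Cryab (-1.97, at least 1.33-fold) and Hspb8 (-2.16). Of 5 other heat-inducible genes 0 were higher and 2 lower, the haem oxygenase Hmox1 (at least 2.10-fold) and the autophagy receptor Sqstm1 (2.50-fold). Of 9 other mitochondrial chaperones and proteases 0 were higher and 3 lower, Clpx (4.90-fold), Trap1 (2.23-fold) and Dnaja3 (2.05-fold). These counts stand beside 3.83% of all genes called higher and 7.07% called lower, and many of the listed genes were under the control limit on the wild-type stem array, among them 6 of 7 other HSP70 genes and 7 of 7 other small heat shock proteins. Cochaperones had 0 of 12 higher and 1 lower, Hspbp1, and other BAG genes had 0 of 5 called. Of 4 measured heat shock factors and their regulators 0 were higher and 1 lower, Hsbp1 (2.18-fold), which binds HSF1. The part of the cell content of the non-stem array in these differences, hepatocyte and kidney tubule signal included, was not tested.

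In LncGata6 mutant stem cells, against wild-type stem cells, TRiC subunits had 0 of 7 higher and 3 lower, Cct8 (2.38-fold), Cct3 (2.33-fold) and Cct5 (2.27-fold), with a list median of -0.99. Cochaperones of HSP70 and HSP90 had 0 of 12 higher and 4 lower: the immunophilin Fkbp4 (2.92-fold), St13 (2.28-fold), the adaptor Stip1 (2.04-fold) and Ppid (at least 1.45-fold), with a median of -0.70. Of the mitochondrial list 0 of 9 were higher and 2 lower, the mitochondrial HSP70 Hspa9 (2.72-fold) and the mitochondrial HSP90 Trap1 (2.15-fold). Other J-domain genes, other BAG genes, other small heat shock proteins, other heat-inducible genes and heat shock factors had 0 calls. Of other HSP70 genes 1 of 7 was higher, Hspa12a, whose values were under the limit on both arrays. Over all genes 2.81% were called higher and 3.02% lower in this comparison, with a median of -0.06.

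In Ehf knockout stem cells, against wild-type stem cells, the mitochondrial list had 0 of 9 higher and 4 lower, Hspa9 (3.88-fold), Trap1 (2.10-fold), the protease Lonp1 (at least 1.58-fold) and the exchange factor Grpel2 (at least 1.52-fold), with a median of -0.86. TRiC had 0 of 7 called (median -0.57), and cochaperones had 1 of 12 lower, Fkbp4 (2.41-fold). Hspa4, an HSP110 relative of Hsph1 (2.17-fold), the J-domain protein Dnaja2 (2.21-fold) and the BAG protein Bag1 (2.03-fold) were each the 1 lower gene of their list. Other small heat shock proteins and heat shock factors had 0 calls. Hmox1 ran the other way and was at least 6.10-fold higher, at 8.23 against 4.02. Over all genes 2.59% were called higher and 5.29% lower in this comparison, with a median of -0.20. A list with 1 called gene is therefore not read as a result.

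The endoplasmic reticulum has its own chaperones under other regulators. In wild-type stem cells, against non-stem cells, 2 of 14 were higher and 0 lower, the HSP70 of this compartment Hspa5 (2.85-fold, 9.14 against 7.63) and Creld2 (2.19-fold). In LncGata6 mutant stem cells, against wild-type stem cells, 4 of 14 were lower, Hspa5 (3.04-fold), the disulfide isomerase Pdia6 (2.91-fold), the HSP90 paralogue Hsp90b1 (2.08-fold) and Creld2 (2.02-fold), and P4hb was 2.02-fold higher. In Ehf knockout stem cells, against wild-type stem cells, 6 of 14 were lower and 0 higher, of which Hspa5 (2.47-fold), the J-domain protein Dnajb9 (2.17-fold), the lectin chaperone Canx (2.17-fold) and P4hb (2.14-fold) differed most. Regulators of the unfolded protein response had 2 of 8 higher on the wild-type stem array than on the non-stem array, Xbp1 (2.16-fold) and Ddit3 (at least 1.92-fold). They had 0 of 8 called in LncGata6 mutant and 1 of 8 lower in Ehf knockout stem cells, against wild-type stem cells. Over all genes 3.83% were called higher and 7.07% lower in wild-type stem against non-stem cells. Against wild-type stem cells, 2.81% were higher and 3.02% lower in LncGata6 mutant stem cells. In Ehf knockout stem cells 2.59% were higher and 5.29% lower than in wild-type stem cells.

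Immediate early genes, which are induced rapidly by many stimuli and many of which encode transcription factors, were read beside the chaperones. Of 17 measured, 14 were higher on the wild-type stem than on the non-stem array (median difference 2.10), where 3.83% of all genes were called higher. In LncGata6 mutant stem cells 7 of 17 were lower than in wild-type stem cells (median -0.81), where 3.02% of all genes were called lower. In Ehf knockout stem cells 12 of 17 were lower (median -1.70), where 5.29% of all genes were. Fos read 7.90, 7.01, 8.71 and 5.52 on the LncGata6 mutant, Ehf knockout, wild-type stem and non-stem arrays, and Atf3 read 7.22, 4.25, 8.52 and 4.67. These comparisons share the wild-type stem array. Against non-stem cells, LncGata6 mutant stem cells had 7 immediate early genes higher, where 3.66% of all genes were, and 0 lower, where 6.87% were. The median was 0.75, beside -0.40 for the chaperones. Ehf knockout stem cells had 3 higher, where 3.01% of all genes were, and 0 lower, where 9.83% were. The median was 0.38, beside -0.38 for the chaperones. These chaperone medians are the values of Bag3, under the limit on the LncGata6 mutant array, and of Hspa8. Hspa1a and Dnajb1 were called higher in LncGata6 mutant stem than in non-stem cells, and Hspd1 lower. The part of immediate early genes in the chaperone differences was not tested.

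**Figure D5:**
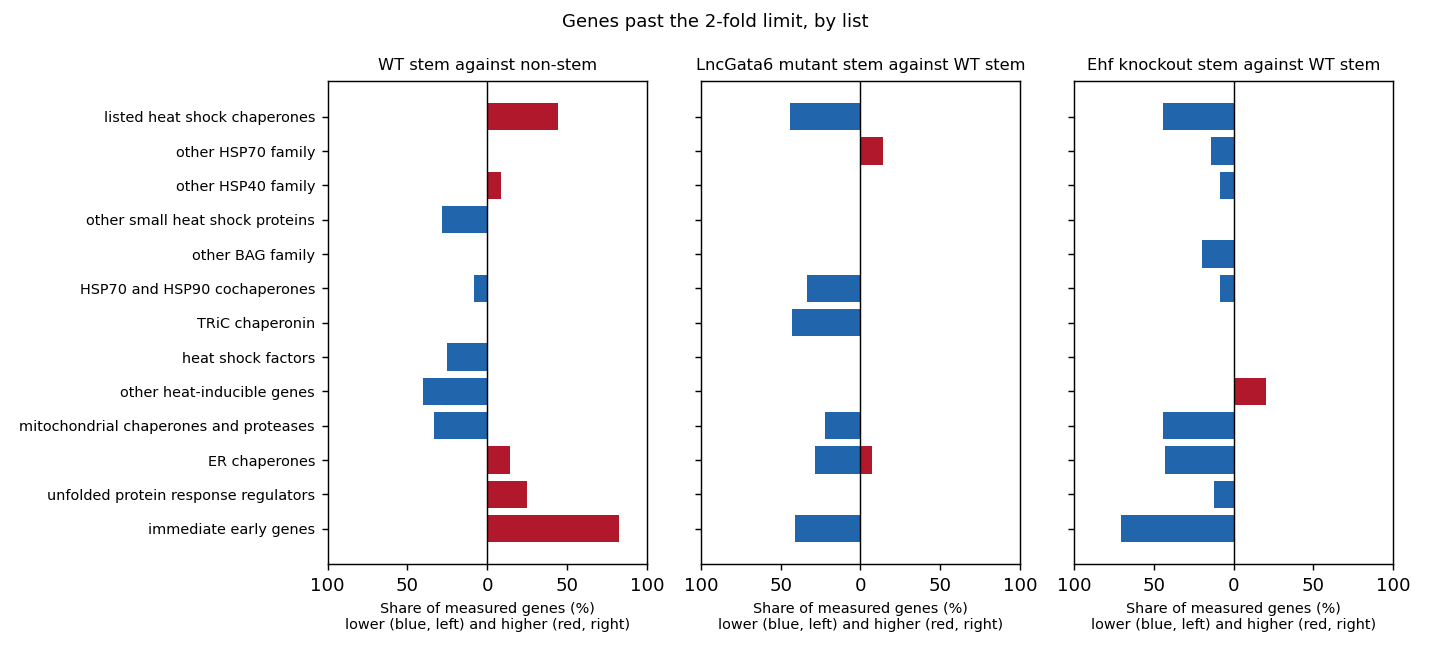
Share of measured genes of each chaperone and stress list called higher (red, right) or lower (blue, left) in 3 comparisons: wild-type stem against non-stem, LncGata6 mutant stem against wild-type stem, and Ehf knockout stem against wild-type stem. In the first panel the listed heat shock chaperones (4 of 9) and the immediate early genes (14 of 17) have the longest red bars among the lists drawn, which leave out the cell type markers.

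The 9 chaperones did not share a single profile. Each gene was centred on its own mean over the arrays, and the distance of its 4 values to the mean profile of the 9 genes was computed in log2 units. Hspa1a lay farthest, at 3.58, followed by Hspd1 at 1.44 and Dnajb1 at 1.01, and the nearest was Hspa8 at 0.64. The mean profile includes the Hspa1a values under background. Among the 10684 genes at or above the 75th percentile on at least 1 array, the chaperones aside, the closest to it were Srsf3-ps (0.0998), the RNA-binding gene Serbp1 (0.143), the J-domain gene Dnajc21 (0.153), the keratin Krt7 (0.167), Thoc1 (0.198), Eid3 (0.198), Hnrnpdl (0.215), Nkx2-3 (0.226), Gm9847 (0.233) and Gm6382 (0.245). These genes lay nearer to the mean profile than any chaperone did. They were picked as the closest of 10684, so this is not read as a result. Distances were taken over 4 arrays, and Thoc1, Eid3 and Nkx2-3 were under the control limit on all of them. Dnajc21 passed it on the wild-type stem array only, and Krt7 on the wild-type stem and non-stem arrays only.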

How the data were processed

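Gene expression was measured on 4 arrays, 1 per sorted population. The deposited series table holds the authors' log2 values, 1 per feature. The submitters' processing notes name Affymetrix Power Tools and RMA without versions. RMA subtracts background, normalises arrays and summarises probes, which compresses differences of dim features. Values ran from -0.183 to 13.1, and array medians over genes were 3.24 to 3.55, so the arrays were not identically distributed.

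Of 72688 features 31261 carried 1 gene symbol in the platform annotation, after 1792 symbols were updated through RefSeq (GRCm38.p6), and 1489 carried several and were left out. No build is named for the features, so coordinates are given for RefSeq promoters only. Differences between arrays were computed in Python 3.11.15 with pandas 2.3.3 and numpy 2.4.6; counting was checked on simulated data. Brightness limits (75th percentile) were 4.93, 4.60, 4.97 and 5.26 on the LncGata6 mutant, Ehf knockout, wild-type stem and non-stem arrays. With 1 array per population there is no test, and precision is limited by the number of arrays. Alternatives were median centring, quantile normalization and cyclic loess (limma 3.58.1), the median of a gene's features, other brightness and fold limits, and, added after seeing the data, features with several symbols.

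The genes and lists were chosen with earlier results of these data known. The genes named are all 10 chaperones, up to 4 called members of each wider list with the largest differences, Hsf1, the 10 genes nearest to the mean profile, and Lgr5, Ehf and Gata6 as checks of the labels; Gata6os, Hsf2, Hsf4, Fos and Atf3 were named after their values were seen.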

Additional observations from a re-analysis of the deposited data

Results flagged for a closer look

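Signal was present in features that the comparisons do not use because they carry several symbols. The feature annotated with Hspa1a and Hspa1b read 8.76 on the wild-type stem array, against 5.53 on the non-stem array. The feature annotated with Gm5844 and Hsp90aa1 read 9.83 on the wild-type stem array, against 8.37 on the non-stem array, and the feature annotated with Gm12346 and Hsp90aa1 read 10.21, against 8.67. Each was picked out because its value on the wild-type stem array exceeded that on the non-stem array by at least 1.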

How the results depend on the processing

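No called chaperone changed sign under any alternative run. For Ehf knockout against wild-type stem cells the count of called chaperones was 2 after median centring, 2 after quantile normalization and 2 after cyclic loess, against 4. For LncGata6 mutant against wild-type stem cells it was 2 after cyclic loess, against 4. Between LncGata6 mutant and Ehf knockout stem cells it was 2 under each of these 3 scalings, and 2 with the features of several symbols, against 1. For Ehf knockout against non-stem cells it was 2 after quantile normalization, 2 with no brightness limit and 2 with the features of several symbols, against 1. With a 4-fold limit it was 1 for wild-type stem against non-stem, 0 for LncGata6 mutant against wild-type stem, 1 for Ehf knockout against wild-type stem, 1 for LncGata6 mutant against non-stem and 0 for Ehf knockout against non-stem. Fewer differences can pass a wider limit, and for the rest the cause was not tested. The share of called genes that were higher moved with the scaling: for wild-type stem against non-stem it was 35.1%, and 50.7% after quantile normalization; for LncGata6 mutant against wild-type stem 48.2%, and 62.8% after cyclic loess; for Ehf knockout against wild-type stem 32.9%, and 44.0%, 52.1% and 51.4% after median centring, quantile normalization and cyclic loess. Against non-stem cells it was 34.8% for LncGata6 mutant stem cells, and 50.1% after quantile normalization and 45.2% after cyclic loess; for Ehf knockout stem cells it was 23.4%, and 35.4%, 48.6% and 38.7% under the 3 scalings in the order above. Between LncGata6 mutant and Ehf knockout stem cells it was 64.0%, and 53.7% after median centring and 49.5% after quantile normalization. No paired analysis was possible because each population is 1 array. Hspb1 and, on the stem arrays, Bag3 lay under the control limits, so signal over background limits what can be said of them.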
